A study of Mus musculus with 3 samples.

Results

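The S100 genes encode small calcium-binding proteins with a pair of EF-hand motifs, most of which work as dimers and bind target proteins once calcium is bound. S100A8 and S100A9 form calprotectin, an abundant protein of neutrophils and monocytes that sequesters zinc and manganese and is measured in stool as a marker of intestinal inflammation. Epithelial cells carry other members, among them S100G (calbindin-D9k), a cytosolic calcium buffer of absorptive cells, whereas S100A4 and S100A6 are known from fibroblasts and other motile cells. The 10 members described here were S100a1, S100a4, S100a6, S100a8, S100a9, S100a10, S100a11, S100a14, S100a16 and S100g, taken by their gene symbol out of 19938 genes with a probe set that carried 1 symbol only. They were covered by 11 probe sets, and in all 17 genes of the S100 family were on the array.

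Colonic gene expression was measured on 3 GeneChip arrays of distal colon collected on day 7 from male BALB/c mice aged 10 to 12 weeks. The IL-4Rα-/- colitis array held RNA pooled from 6 mice homozygous for a targeted Il4ra allele (BALB/cJ-Il4ra tm1Sz), which lack the subunit shared by the IL-4 and IL-13 receptors in every cell, and which drank 3% dextran sulfate sodium (DSS), a polymer that injures the colonic epithelium. The WT colitis array held RNA of 3 littermates on the same DSS, and the WT normal array RNA of 4 littermates on water. Untreated IL-4Rα-/- colon was not analysed here. With 1 array of pooled RNA per group there was no spread between replicates, so every difference below is a difference between 2 arrays with no error and no p-value.

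The pools differed in severity. The disease activity index, a score of diarrhea and rectal bleeding, had a median of 1 (range 0 to 3) in the 6 IL-4Rα-/- colitis mice, 4 (3 to 4) in the 3 WT colitis mice and 0 in each of the 4 WT normal mice. Genotype and severity therefore cannot be told apart between the colitis arrays. The log2 signal of Il4ra itself was 4.76 in IL-4Rα-/- colitis, 6.63 in WT colitis and 5.69 in WT normal, and whether its probes lie in the deleted part is not known here. As a guide to background, the 1210 probe sets of olfactory and vomeronasal receptors, which colon is not known to use, had a median log2 signal of 2.44 and a 95th percentile of 3.5. Differences with a signal below 4 are limited by that background, so log2 signals are given there in place of a fold, and a log2 difference between them gives a direction and not a measured size. Of the 10 members, 9 reached 4 on 1 array or more, S100a4 being the exception. In bulk tissue, fewer cells of a type and less RNA per cell cannot be told apart.

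On the WT colitis array calprotectin lay above its WT normal level and the epithelial members below theirs. Between those arrays S100a6, the annexin partners and S100a1 differed by at most 0.38 on the log2 scale, on the probe sets used. The other probe set of S100a11 differed by 0.48. Both calprotectin genes were at background in IL-4Rα-/- colitis and in WT normal, so no difference between those arrays was measurable for them. In IL-4Rα-/- colitis S100a14 lay within 0.08 of WT normal, and S100g stood between the WT arrays. Set against WT normal, WT colitis had 1 of the 10 members past 2-fold upward (S100a8) and 2 downward (S100g and S100a14), where 1.16% of all genes were past it upward and 0.456% downward. Set against WT colitis, IL-4Rα-/- colitis had 1 member past 2-fold upward (S100g) and 1 downward (S100a8), against 0.271% and 0.908% of all genes. Between IL-4Rα-/- colitis and WT normal, 0 of the 10 passed 2-fold, against 0.186% of all genes that were higher and 0.336% that were lower. These counts come from 1 array a group and no test was run. S100a14 at -1.01 lay just past the 2-fold line in WT colitis and S100a9 at 0.95 just inside it, so the counts turn on small differences, while the members' median difference was near 0 in each comparison (-0.02, 0.01 and -0.02). The median of all genes was 0, which is no yardstick here. It had to be 0, since 52.3%, 52.3% and 65.8% of genes had equal values on the arrays compared.

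**Figure D1:**
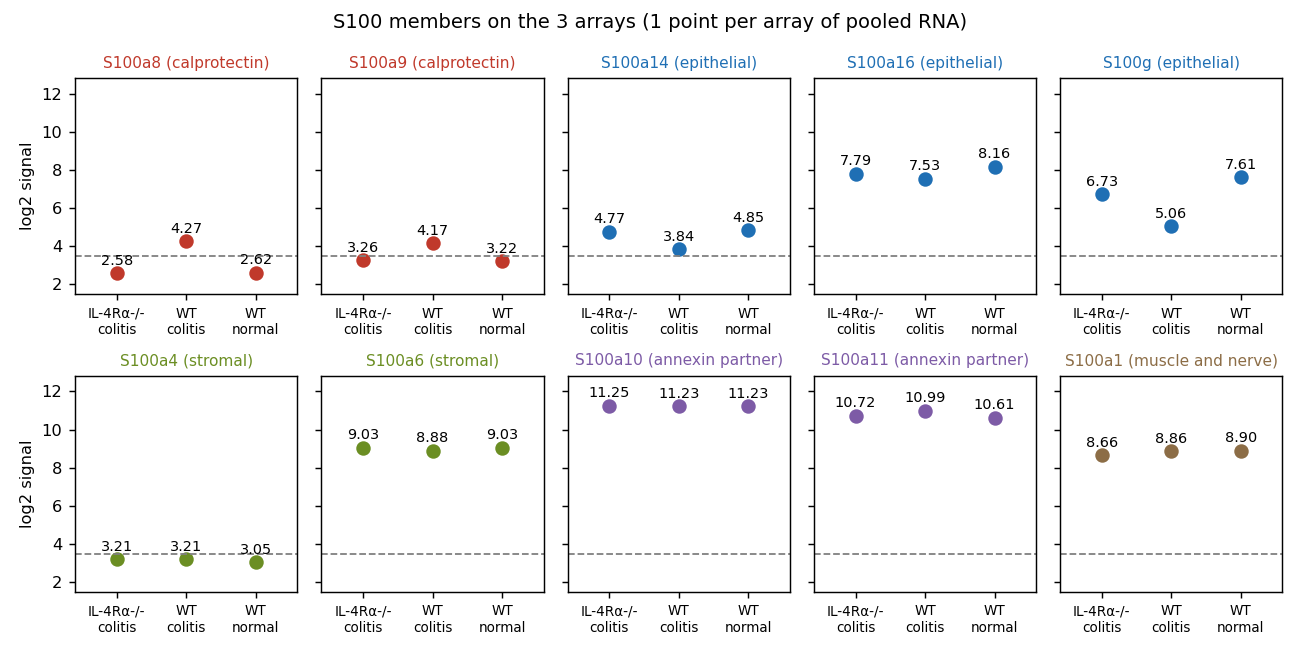
Log2 signal (y axis) of the 10 S100 members on the IL-4Rα-/- colitis, WT colitis and WT normal arrays (x axis), 1 point per array with its value, coloured by role; the dashed line at 3.5 is the 95th percentile of olfactory and vomeronasal receptors. S100a8 and S100a9 are above the line on the WT colitis array alone (4.27 and 4.17), and S100g is lowest there (5.06).

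The 8 members with a promoter in RefSeq all lie on chromosome 3 except S100g, which is on chromosome X. The 250 bases before the annotated start are shown for the calprotectin pair, whose signals differed in the same direction, and for S100g, whose signal differed the other way. They are written 5′ to 3′ on the gene's own strand, and capitals mark a C/EBP-type match (TTGCNNAA, searched on both strands). C/EBP factors are transcription factors of myeloid and epithelial differentiation. The windows are chr3:90668821-90669070 on the plus strand for S100a8, chr3:90695722-90695971 on the minus strand for S100a9 and chrX:162964600-162964849 on the minus strand for S100g (RefSeq, GRCm38.p6).
S100a8: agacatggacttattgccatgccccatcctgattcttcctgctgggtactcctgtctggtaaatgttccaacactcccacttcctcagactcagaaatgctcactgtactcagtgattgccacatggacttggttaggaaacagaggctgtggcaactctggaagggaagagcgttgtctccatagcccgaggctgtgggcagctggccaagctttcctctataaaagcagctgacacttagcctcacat
S100a9: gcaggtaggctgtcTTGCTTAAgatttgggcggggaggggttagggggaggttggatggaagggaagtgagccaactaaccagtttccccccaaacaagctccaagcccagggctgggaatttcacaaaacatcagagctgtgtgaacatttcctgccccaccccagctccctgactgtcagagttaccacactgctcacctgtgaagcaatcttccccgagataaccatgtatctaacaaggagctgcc
S100g: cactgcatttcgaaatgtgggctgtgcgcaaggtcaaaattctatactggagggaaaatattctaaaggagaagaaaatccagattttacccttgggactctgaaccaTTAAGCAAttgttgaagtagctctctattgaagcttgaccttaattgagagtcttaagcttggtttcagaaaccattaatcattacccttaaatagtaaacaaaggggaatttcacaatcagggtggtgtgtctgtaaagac

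The C/EBP-type letters were found at -236 to -229 from the start of S100a9 and, on the opposite strand, at -142 to -135 from that of S100g, and not in this window of S100a8. They occurred in the same window of 9.56% of 32851 promoters, or 10.8% of 27025 genes. The AP-1 letters TGANTCA were found in S100a11, at -136 and at -38, and in 1 of the promoters of S100a16, at -192, against 6.75% of all promoters and 7.82% of genes. The palindrome TTCNNNNGAA, the kind bound by STAT6 downstream of the IL-4 receptor, was in 0 of the 8 members and in 6.76% of 27025 genes (5.85% of promoters). A match is a description of the letters only, and STAT6 may bind outside this window.

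Calprotectin was above background in WT colitis and not on the other arrays. S100a8 had a log2 signal of 2.58 in IL-4Rα-/- colitis, 4.27 in WT colitis and 2.62 in WT normal. It was thus past the dim limit on the WT colitis array alone. S100a9, its partner in the heterodimer, had 3.26 in IL-4Rα-/- colitis, 4.17 in WT colitis and 3.22 in WT normal. Both genes had their low values under the 95th percentile of olfactory and vomeronasal receptors, so these arrays give the direction of either difference and not its size. On the WT colitis array both were still dim, close to the limit of 4.

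The receptors through which extracellular calprotectin and related S100 proteins act on cells were also measured. Of 8 genes on a list of such receptors and co-receptors, 0 passed 2-fold in any of the 3 comparisons, and the median difference between WT colitis and WT normal was 0.23. Tlr4, the innate receptor engaged by S100A8, had 5.95 in IL-4Rα-/- colitis, 6.22 in WT colitis and 5.64 in WT normal. Ager, the receptor for advanced glycation end products (RAGE), had 4.61 on each array, and Bsg, a receptor described for S100A9, had 9.73 on each. Cd33, a myeloid lectin described as a receptor for S100A9 in human cells, had 5.52 in IL-4Rα-/- colitis, 6.15 in WT colitis and 5.56 in WT normal. Cd36, a scavenger receptor reported to take up fatty acids bound to calprotectin, had 4.52 in IL-4Rα-/- colitis, 5.06 in WT colitis and 4.52 in WT normal. Cd33 and Cd36 were thus highest in WT colitis, as S100a8 and S100a9 were, but by less than 2-fold.

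Neutrophil markers were mostly dim. Of 17 measured neutrophil markers, 13 stayed under a log2 signal of 4 throughout, and the list's median signal was 2.89 in IL-4Rα-/- colitis, 3.04 in WT colitis and 3.02 in WT normal. Gene by gene, WT colitis over WT normal gave 11 positive differences, 0 negative and 6 equal, with a median of 0.21. IL-4Rα-/- colitis over WT colitis gave 0 positive, 12 negative and 5 equal, with a median of -0.21. For the 13 dim markers these differences give a direction only. Mmp9, a gelatinase of neutrophil granules, was the single marker past 2-fold, with 3.50 in IL-4Rα-/- colitis, 4.58 in WT colitis and 3.45 in WT normal. Mpo (myeloperoxidase) had 2.32 and Camp (cathelicidin) 3.17 on all 3 arrays, under that percentile too. Itgam, the CD11b integrin chain of neutrophils and monocytes, had 4.43 in IL-4Rα-/- colitis, 5.25 in WT colitis and 4.43 in WT normal. Csf3r, the receptor for granulocyte colony-stimulating factor, had 3.31 in IL-4Rα-/- colitis, 3.91 in WT colitis and 3.16 in WT normal. Itgam and Csf3r were thus both highest in WT colitis. The difference was less than 2-fold for Itgam, while for Csf3r, below 4 on each array, it gives a direction only. Ly6g was bright on every array (10.60 in IL-4Rα-/- colitis, 10.81 in WT colitis and 10.24 in WT normal), also in untreated colon, where Mpo, Elane (3.02) and Camp were at background. Signals at background give no measure of how many neutrophils the tissue held. Among 12 monocyte and macrophage markers, Cd163 passed 2-fold, with 3.12 in IL-4Rα-/- colitis, 4.22 in WT colitis and 3.12 in WT normal, and the median difference between WT colitis and WT normal was 0.32. Cd14, the lipopolysaccharide co-receptor of monocytes, ran differently, with 6.60 in IL-4Rα-/- colitis, 6.10 in WT colitis and 5.75 in WT normal, and was the 1 of the 12 above its WT colitis level in IL-4Rα-/- colitis. The part of neutrophils or monocytes in the calprotectin signal was not tested.

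Squamous epithelium also expresses calprotectin, and the distal colon borders on it at the anus. Of 11 squamous markers, 8 were at or below 3.5 on every array, among them the terminal markers Ivl (2.41 on each array) and Krt4 (2.58 in IL-4Rα-/- colitis, 2.78 in WT colitis and 2.58 in WT normal). Also among the 8, Krt13 had 3.05 in IL-4Rα-/- colitis, 3.47 in WT colitis and 3.05 in WT normal, and Sprr3 had 2.81, 3.35 and 2.81. WT colitis over WT normal gave 9 positive differences among the 11, 0 negative and 2 equal. IL-4Rα-/- colitis over WT colitis gave 1 positive, 8 negative and 2 equal. For the 8 dim markers these differences give a direction only. The basal keratin Krt5 was the marker past 2-fold, with 3.14 in IL-4Rα-/- colitis, 5.17 in WT colitis and 3.09 in WT normal, and its partner Krt14 had 4.11 in IL-4Rα-/- colitis, 4.63 in WT colitis and 4.11 in WT normal. Sprr1a, a cornified envelope gene and the brightest of the list, was instead highest in IL-4Rα-/- colitis, with 8.45, against 8.22 in WT colitis and 7.86 in WT normal. The list's median signal was 3.05 in IL-4Rα-/- colitis, 3.35 in WT colitis and 2.92 in WT normal. Krt5 and S100a8 were both highest in WT colitis and under 3.5 on the other arrays, and whether squamous cells contributed to the calprotectin signal was not tested. The cytokines and chemokines that accompany neutrophil recruitment were also highest there by their median (a difference of 0.83 over WT normal). Of 10 measured, 3 were past 2-fold upward and 0 downward for WT colitis over WT normal, against 1.16% and 0.456% of all genes. For IL-4Rα-/- colitis over WT colitis, 0 were past it upward and 2 downward, against 0.271% and 0.908%. Of the 10, 5 had a signal below 4 on every array, and 4 were at or below 3.5 throughout. Cxcl2, a neutrophil attractant, had 2.30 in IL-4Rα-/- colitis, 4.05 in WT colitis and 2.06 in WT normal, and Cxcl5, an epithelial one, had 2.69 in IL-4Rα-/- colitis, 4.26 in WT colitis and 2.41 in WT normal. Il1a, an alarm cytokine of epithelium, had 3.05 in IL-4Rα-/- colitis, 3.64 in WT colitis and 2.41 in WT normal, so all 3 had background signals outside WT colitis.

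The epithelial members were lowest in WT colitis. S100g had a log2 signal of 6.73 in IL-4Rα-/- colitis, 5.06 in WT colitis and 7.61 in WT normal, each above background. Its level in WT colitis was 5.86-fold under that of WT normal, number 18 from the bottom of 19938 genes, and its level in IL-4Rα-/- colitis was 3.18-fold over that of WT colitis, number 16 from the top. In IL-4Rα-/- colitis it was still 1.84-fold below WT normal, which left 34.5% of its log2 difference in WT colitis. S100a14, a member of simple and stratified epithelia, had 4.77 in IL-4Rα-/- colitis, 3.84 in WT colitis and 4.85 in WT normal, so its value in WT colitis is close to background. S100a16, a widely expressed member of epithelia and fat, had 7.79 in IL-4Rα-/- colitis, 7.53 in WT colitis and 8.16 in WT normal, so WT colitis was 1.55-fold under WT normal and IL-4Rα-/- colitis 1.20-fold over WT colitis. All 3 had the same order of arrays, with WT normal highest and WT colitis lowest, and they differed in how far IL-4Rα-/- colitis was from WT normal, with 58.7% of the log2 difference left for S100a16.

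The 14 markers of colon epithelium, each with a log2 signal of at least 8.32 throughout, differed less than S100g. Of these, 1 was past 2-fold downward and 0 upward for WT colitis over WT normal, with a median difference of -0.17. It was the chloride exchanger Slc26a3 of surface colonocytes, with 10.01 in IL-4Rα-/- colitis, 9.05 in WT colitis and 10.11 in WT normal. Against WT normal, 10 of the 14 were lower in WT colitis by any amount, 3 were higher and 1 was equal. Krt18, a keratin of simple epithelium, had 9.03 in IL-4Rα-/- colitis, 9.09 in WT colitis and 9.60 in WT normal, and Car4, a carbonic anhydrase of surface colonocytes, had 11.39 in IL-4Rα-/- colitis, 11.05 in WT colitis and 11.45 in WT normal. Epcam, an adhesion molecule of all colonic epithelial cells, was among the 3, with 10.28 in IL-4Rα-/- colitis, 10.16 in WT colitis and 10.07 in WT normal, and Cdh1 (E-cadherin) had 10.49 on each array. The genes of calcium absorption that work with S100G had smaller differences. Trpv6, the apical calcium channel, had 3.79 in IL-4Rα-/- colitis and 3.21 on both WT arrays, at or near background. Vdr, the vitamin D receptor that induces S100g, had 9.87 in IL-4Rα-/- colitis, 9.66 in WT colitis and 9.82 in WT normal, and Atp2b1, the basolateral calcium pump, 8.94 on each. Of 9 measured genes on that list, 0 passed 2-fold in any comparison, and 5 had a signal below 4 on every array.

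**Figure D2:**
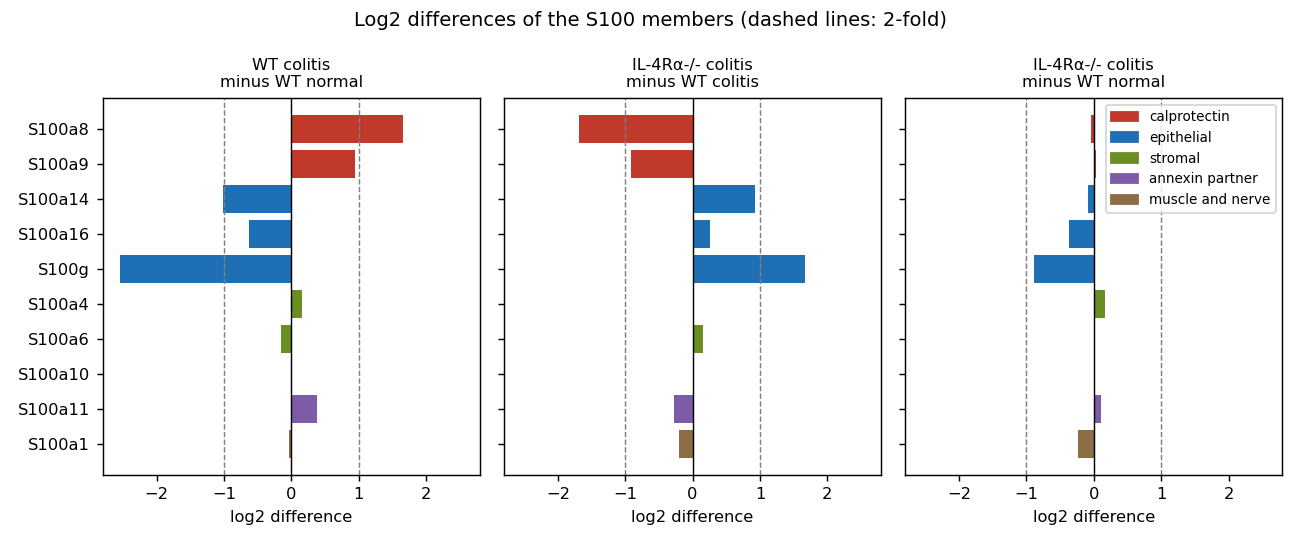
Log2 difference (x axis) of the 10 S100 members (y axis) for WT colitis over WT normal (left), IL-4Rα-/- colitis over WT colitis (middle) and IL-4Rα-/- colitis over WT normal (right), 1 bar per gene from 1 array per group, coloured by role, with dashed lines at 2-fold. S100g reached -2.55 on the left and 1.67 in the middle, S100a8 1.65 and -1.69 (against background signals), and on the right the bars ran from -0.88 to 0.16.

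Calprotectin and the epithelial members differed in opposite directions. For WT colitis over WT normal the mean log2 difference was 1.30 for S100a8 and S100a9 and -1.40 for S100a14, S100a16 and S100g, while S100a6, the stromal member above background, had -0.15. For IL-4Rα-/- colitis over WT colitis the means were -1.30 for calprotectin and 0.95 for the epithelial members, and S100a6 had 0.15. Calprotectin minus the epithelial members came to 2.70 for WT colitis over WT normal and to -2.25 for IL-4Rα-/- colitis over WT colitis. The calprotectin means are taken against background signals, so these values give the direction and not a measured size: with an offset of 32 added on the linear scale, the 2.70 was 1.27 and the -2.25 was -0.90. Both comparisons share the WT colitis array, so their opposite signs are not independent of each other.

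Of the stromal members, S100a6 was measured above background and S100a4 was not. S100a6 (calcyclin), found in fibroblasts and proliferating epithelium, had a log2 signal of 9.03 in IL-4Rα-/- colitis, 8.88 in WT colitis and 9.03 in WT normal. S100a4, also called fibroblast-specific protein, had 3.21 in IL-4Rα-/- colitis and in WT colitis and 3.05 in WT normal, which is at background on each array, so its probe set gave no measure of the gene's change. Fibroblast markers, by contrast, were bright and higher in WT colitis, with a median difference of 0.53 over WT normal for 12 genes and -0.66 for IL-4Rα-/- colitis over WT colitis. Of these 12, 2 (Dcn and Pdgfra) were past 2-fold upward for WT colitis over WT normal and downward for IL-4Rα-/- colitis over WT colitis. Dcn, the matrix proteoglycan decorin, had 9.49 in IL-4Rα-/- colitis, 10.76 in WT colitis and 9.49 in WT normal, and Pdgfra, a growth factor receptor of fibroblasts, had 6.48 in IL-4Rα-/- colitis, 7.51 in WT colitis and 6.45 in WT normal. S100a6, by comparison, was 1.11-fold under its WT normal level in WT colitis.

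**Figure D3:**
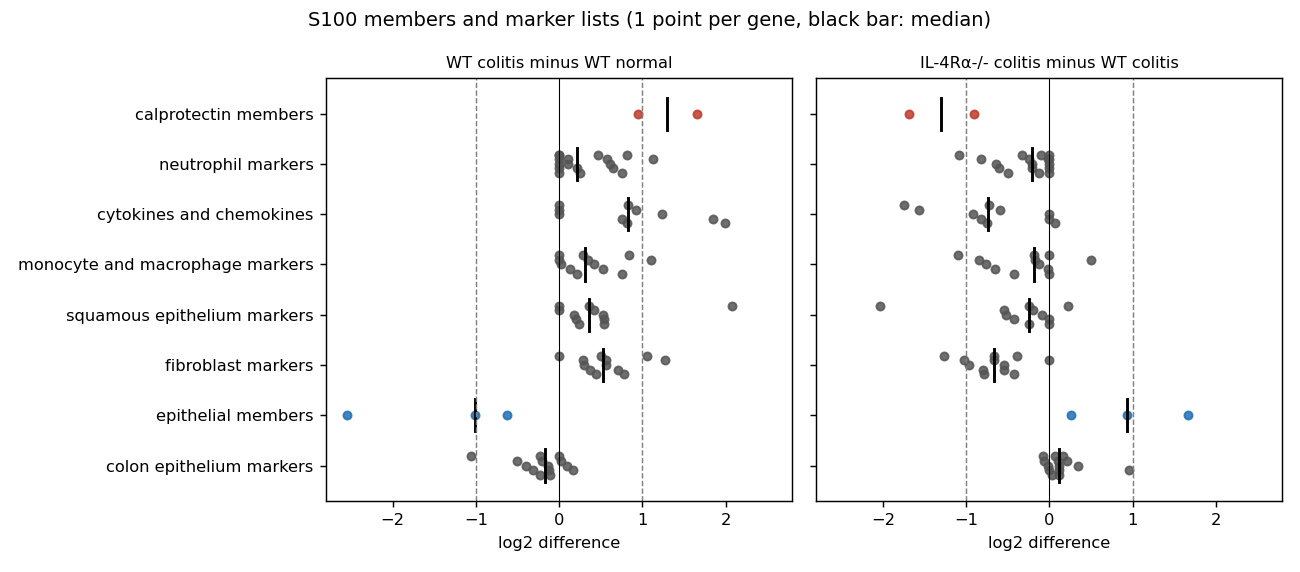
Log2 difference (x axis) of single genes, 1 point per gene with a black bar at the median, for the calprotectin and epithelial members and 6 lists of marker genes or cytokines and chemokines (y axis), WT colitis minus WT normal on the left and IL-4Rα-/- colitis minus WT colitis on the right, with dashed lines at 2-fold. The 3 epithelial members lie at -2.55, -1.01 and -0.63 on the left, where the median of the colon epithelium markers is -0.17.

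The members that work with annexins were bright and nearly level. S100a10 (p11), which binds annexin A2 at the plasma membrane and does not itself bind calcium, had 11.25 in IL-4Rα-/- colitis and 11.23 on both WT arrays. Its partner Anxa2 had 9.16 in both colitis arrays and 9.19 in WT normal. S100a11 (calgizzarin), which binds annexin A1, had 10.72 in IL-4Rα-/- colitis, 10.99 in WT colitis and 10.61 in WT normal on the probe set that stands for the gene. Its other probe set had 10.72 in IL-4Rα-/- colitis, 11.01 in WT colitis and 10.53 in WT normal, and WT colitis was 1.30-fold over WT normal on the probe set used. Anxa1, an annexin that restrains neutrophil migration, had 7.39 in both colitis arrays and 7.05 in WT normal. Of 9 genes for annexins and the S100A10 partner Ahnak, 0 passed 2-fold in any comparison, and Anxa5 differed most, with 8.26 in IL-4Rα-/- colitis, 8.91 in WT colitis and 8.26 in WT normal. S100a1, a regulator of calcium handling in muscle and also found in nerve, had 8.66 in IL-4Rα-/- colitis, 8.86 in WT colitis and 8.90 in WT normal, and the 8 smooth muscle markers had a median difference of -0.07 for WT colitis over WT normal and -0.11 for IL-4Rα-/- colitis over WT colitis.

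Of the 7 other S100 genes, 6 had a signal below 4 on each array. S100a13, involved in the release of fibroblast growth factor, was the one above it, with 5.45 on both colitis arrays and 5.58 in WT normal. S100b, a marker of enteric glia, had 3.41 on both colitis arrays and 3.58 in WT normal, and S100a7a, the mouse relative of human psoriasin, 2.53 on each array. None of the 7 passed 2-fold in any comparison, and their differences ran from -0.17 to 0.

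The genes with the most similar profiles differed between members. Likeness was the Euclidean distance between 3 log2 signals, each profile centred on its own mean, over 11294 genes with a signal of at least 4 on 1 array or more. Nearest to S100g were B3gnt7, a glycosyltransferase (distance 0.28), Hoxb13, a homeobox gene of the distal colon (0.29), Insl5, a hormone of colonic L cells (0.50), Wfdc2, an epithelial protease inhibitor (0.52), and Sval1 (0.52). Hoxb13 had 7.44 in IL-4Rα-/- colitis, 5.47 in WT colitis and 7.92 in WT normal. Nearest to S100a8 were Lpl and Myl1 (0.050 each), Gja1 (0.071), Igf1 (0.073) and Slit3 (0.078), and Lpl, lipoprotein lipase, had 5.72 in IL-4Rα-/- colitis, 7.44 in WT colitis and 5.72 in WT normal. S100a9 was 154th in the order of likeness to S100a8, and S100a8 was 2529th in that to S100a9, at the same distance of 0.61, with the low values of both at background. Nearest to S100a9 were the chemokine receptor Cxcr4 (a distance of 0, with 6.23 in IL-4Rα-/- colitis, 7.14 in WT colitis and 6.19 in WT normal), Satb1 (0.016), Slc15a3 (0.022) and Ehd3 (0.028), followed by Ggt5 (0.029), which tied with another gene. With 3 values a profile, many genes come this near, and the closeness says nothing of function.

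**Figure D4:**
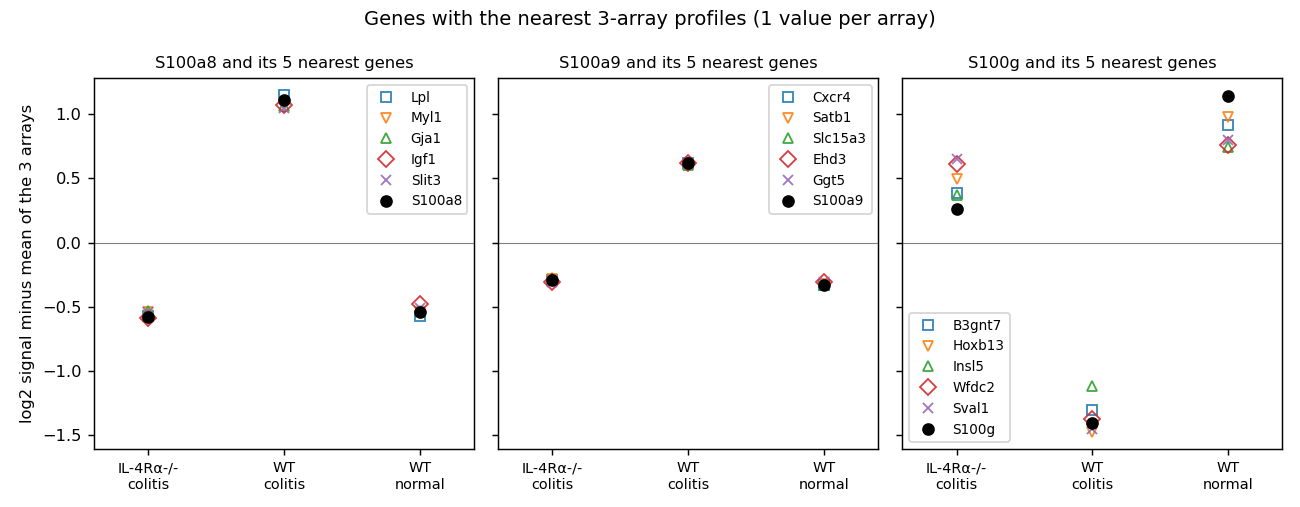
Log2 signal minus the mean of the 3 arrays (y axis) on the IL-4Rα-/- colitis, WT colitis and WT normal arrays (x axis) for S100a8, S100a9 and S100g (black) and the 5 genes with the nearest profile to each (open symbols), 1 value per array. S100a8 and S100a9 and their neighbours are high on the WT colitis array alone, and S100g and its neighbours are low there, with IL-4Rα-/- colitis below WT normal for each of the 6 genes.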

How the data were processed

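Distal colon RNA was pooled per group and hybridised to 1 array each of IL-4Rα-/- colitis (6 mice), WT colitis (3) and WT normal (4). The methods name the GeneChip Mouse Gene 1.0 ST Array and GeneChip Analysis Suite Software, whereas the labels describe cyanine-3 labelling with an Agilent kit. The probe set identifiers are those of the GeneChip annotation. For 28944 probe sets the authors deposited 1 log2 signal per array, rounded to 2 decimals and not centred on 0. The methods mention median-centred log2 levels for a colour display, and how probes were summarised and arrays normalized is not given in the labels or the methods.

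Of these, 21789 probe sets had 1 gene symbol, and 21698 of those matched a RefSeq gene by number. A gene was represented by its probe set with the highest mean over the 3 arrays. Log2 differences were taken between arrays, and a gene past 2-fold (a difference above 1 or below -1) was counted as called. No test was run. The members, the gene lists and the rule for named genes (the members, fixed partner genes, genes past 2-fold in the lists of S100 relatives, receptors, annexins and calcium absorption, up to 4 genes with the widest differences in each other list, Il4ra, nearest profiles) were chosen with earlier results of these data known. Further genes (Cd33, Cd36, Bsg, Anxa5, Krt13, Krt14, Elane, Epcam, Cdh1, Mpo, Camp, Ly6g, Ivl, Krt4, Atp2b1, S100a13, S100b and S100a7a) were chosen after their values were seen. Among them, Krt13, Krt14, Elane, Epcam and Ly6g also had 1 of the 4 widest differences of their list in some comparison, and the others fell outside the rule. Alternatives were quantile normalization, centring on the median, an offset of 32, averaging all probe sets of a gene, a 1.5-fold threshold and a minimum signal of 4. The counting step was tested on simulated data. Protein sequences were not used here. Python 3.11.15, numpy 2.4.6, pandas 2.3.3 and matplotlib 3.10.9 were used.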

Additional observations from a re-analysis of the deposited data

How the results depend on the processing

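Of 45 values, 9 were counts of members and the rest log2 values. Quantile normalization, centring on the median and averaging all probe sets of a gene each left the 9 counts as they were. Each also left the log2 values within the spread of all changing probe sets (robust SD of 0.18, 0.15 and 0.089 for WT colitis over WT normal, for IL-4Rα-/- colitis over WT colitis and for IL-4Rα-/- colitis over WT normal). No log2 difference changed sign under these or the offset. Centring moved the median of all genes by at most 0.07. The minimum signal of 4, which a member had to reach on either array compared, left all 9 counts as they were. S100a8 and S100a14 passed it through their higher array alone, so this setting does not test the effect of background on them. An offset of 32, which by its construction shrinks dim signals, moved 19 of 45 values. With it, 1 of the 10 members was past 2-fold in WT colitis over WT normal and 1 in IL-4Rα-/- colitis over WT colitis, S100g in both, and S100a8 had differences of 0.43 and -0.43. Calprotectin minus epithelial members was then 1.27 and -0.90, and calprotectin minus stromal members, of which S100a4 was at background, 0.40 and -0.42. At 1.5-fold, 5 members were past the threshold in WT colitis over WT normal, 4 in IL-4Rα-/- colitis over WT colitis and 1 in IL-4Rα-/- colitis over WT normal. The share of all genes past 1.5-fold was not counted, so these counts cannot be set against it. S100a8, S100a9 and S100a14, counted in both comparisons with WT colitis, had a signal below 4 on 1 of the arrays compared. No paired analysis was possible because each group has 1 array. Signal over background limits S100a4, S100a8, S100a9 and, in WT colitis, S100a14.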

Other observations

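The deposited values repeat between arrays more than the members' values do. Of 19938 genes, 65.8% had the same 2-decimal value in IL-4Rα-/- colitis and WT normal, 52.3% in WT colitis and WT normal and 52.3% in IL-4Rα-/- colitis and WT colitis, and 45.8% had the same value on all 3 arrays. A further 3980 genes were equal in IL-4Rα-/- colitis and WT normal and different in WT colitis alone, against 1292 equal on the WT arrays only and 1299 equal on the colitis arrays only. Of the S100 members, S100a6 was equal in IL-4Rα-/- colitis and WT normal (9.03), S100a4 in both colitis arrays (3.21) and S100a10 on both WT arrays (11.23), and 0 of the 10 were equal on all 3. How these equal values arose was not tested, and a difference of exactly 0 on these arrays is therefore not a measure of precision.

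Genes of the epidermal differentiation complex, the cluster of keratinocyte genes that neighbours the S100 genes on chromosome 3, were mostly dim here. Of 8 measured, 6 had a log2 signal below 4 on each array and 0 passed 2-fold in any comparison. Hrnr, which encodes the fused S100-type protein hornerin, had 4.85 in IL-4Rα-/- colitis, 5.03 in WT colitis and 4.85 in WT normal. The differences of these 8 genes for WT colitis over WT normal ran from 0 to 0.35, against 1.65 for S100a8 and 0.95 for S100a9. Since 5 of the 8 were at or below 3.5 on every array, and S100a8 and S100a9 were at background in WT normal, these values do not compare sizes.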
